A study of Mus musculus with 14 samples.

Results

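Genes listed as readers of methylated lysine with malignant brain tumour (MBT) repeats were compared between mouse hippocampal cells with and without a block of inhibition. The 10 genes were taken by name: L3mbtl1, L3mbtl2, L3mbtl3, L3mbtl4, Sfmbt1, Sfmbt2, Mbtd1, Scmh1, Scml2 and Scml4. All 10 had a row among the 43629 gene identifiers of the count tables, and all 10 passed the filter on low counts that kept 15959 genes. RNA-seq covered 8 libraries from primary hippocampal cultures of wild-type C57BL6 mice, made from pups aged 0 to 1 days after birth and grown for 14 days in vitro. For 4 libraries the cells had 0.1% DMSO for 15 h (CTRL), and for the other 4 they had 100 µM picrotoxin for 15 h (PTX; the labels name no solvent). Picrotoxin blocks the GABA-A receptor, a chloride channel through which most fast inhibition in the brain runs, so the comparison asks how raised network activity changes each reader's transcript. The labels do not say whether the replicates were separate cultures, so the p-values measure the spread between these libraries, which may be technical. ChIP-seq used an antibody against L3mbtl1 in C57BL6/129 hippocampus of postnatal day 7 to 8, from 3 wild-type and 3 L3mbtl1-/- samples, and was available as 1 list of 4677 peaks. That list shows where these genes lie relative to L3mbtl1 peaks, in another age and strain background than the cultures.

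MBT repeats fold into an aromatic pocket that holds lysines with few methyl groups, above all mono- and dimethyl-lysine on histones. The founding member, the fly l(3)mbt gene, is a brain tumour suppressor, and the mammalian proteins mostly work in transcriptional repression and chromatin compaction. They do so in different company: L3MBTL1 with RB1 and heterochromatin protein HP1-gamma, L3MBTL2 in a variant Polycomb complex (PRC1.6), SFMBT proteins with YY1 or the demethylase KDM1A, MBTD1 in the NuA4/TIP60 acetyltransferase, and SCMH1 and SCML2 beside canonical Polycomb complex PRC1.

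Gene counts per library ran from 14524916 to 19498189, and CTRL and PTX libraries parted on the first principal component (60.1% of variance). Both libraries numbered 1 stood apart on the second component (21% of variance). Their summed meningeal fibroblast markers reached 417 CPM (counts scaled to a fixed library total) in CTRL and 339 CPM in PTX, against 108 to 219 CPM in the other 6 libraries, and their summed microglia markers were at 14.7 and 18.9 CPM against 49.5 to 131 CPM. All 14 listed activity-response genes, among them Fos and Bdnf, rose in PTX. Neuron markers were abundant in every library, with a summed level of 4508 to 5873 CPM in CTRL and 7445 to 10428 CPM in PTX. Of these 9 genes 4 rose and 2, Rbfox3 and Syt1, fell. Nefl, which went from a mean of 319 CPM in CTRL to 3318 CPM in PTX, made the largest part of the higher sum. Of 8 excitatory neuron genes 6 fell while Slc17a6 rose, and their sum, which Slc17a6 carries in PTX, went from 484 to 626 CPM in CTRL up to 669 to 836 CPM in PTX. Of 7 inhibitory neuron genes 4 rose and 2 fell, 4 of 9 astrocyte genes fell with none rising, and 1 of 5 tested endothelial and mural genes rose. No microglia, oligodendrocyte or fibroblast marker passed the test in either direction. In bulk cultures, fewer cells of a type and less RNA per cell cannot be told apart.

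Under picrotoxin 7 of the 10 reader transcripts fell and 2 rose, Sfmbt2 and Sfmbt1, while L3mbtl3 did not pass the test. A gene counts as changed at a Benjamini-Hochberg adjusted p under 0.05 over all 15959 genes in edgeR's quasi-likelihood test. Such changes were common: 39.2% of all tested genes passed in either direction, 20.1% as lower and 19.0% as higher in PTX. The median log2 fold change of the 10 readers was -0.51, against -0.03 over all tested genes. For 8 of the 10 readers the 4 CTRL and 4 PTX values did not overlap, which held for 38.0% of tested genes. The count of lowered readers dropped to 4 without CTRL replicate 3 and to 4 without PTX replicate 3, where L3mbtl2, Scml2 and Scml4 lost their calls, while Sfmbt1 and Sfmbt2 were called under all 14 alternative settings. Values are CPM on TMM-scaled library sizes, without correction for transcript length, so levels of different genes are not compared.

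**Figure D1:**
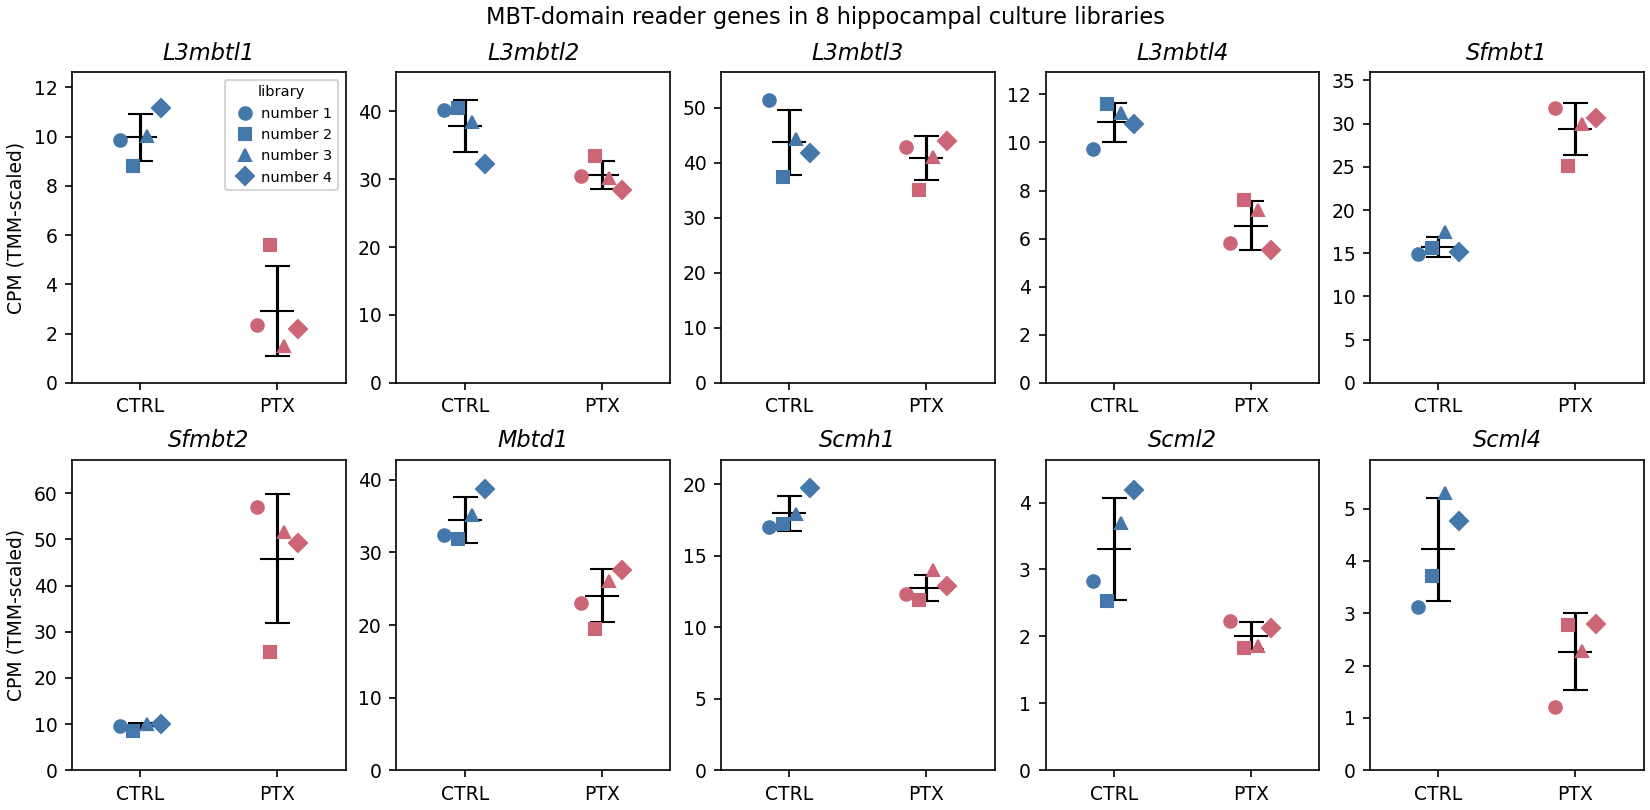
Level of each reader in the 8 libraries, in CPM on TMM-scaled library sizes (vertical axes start at 0), with CTRL in blue and PTX in red, marker shapes for the library number, and a black line and bar for mean and SD (n = 4). PTX values lie below CTRL values for 6 of the 7 lowered readers, overlap for L3mbtl2 and L3mbtl3, and lie above CTRL for Sfmbt1 and Sfmbt2.

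L3mbtl1 (ENSMUSG00000035576, chr2:162942333-162977806, plus strand, mm10) encodes the antibody's target, a reader of mono- and dimethylated histone H4 lysine 20. It stood at 9.85, 8.81, 10.0 and 11.2 CPM in CTRL libraries 1 to 4 and at 2.36, 5.60, 1.52 and 2.18 CPM in PTX libraries 1 to 4. The groups do not overlap, and PTX library 2 is the highest of its group, with 95 reads where the other 3 had 22 to 37. The means of 9.97 ± 0.97 and 2.92 ± 1.83 CPM (SD, n = 4) make a 3.39-fold fall (log2 fold change -1.76 with an SE of 0.34, edgeR adjusted p = 0.00249), lower in 4 of 4 same-numbered pairs. This was the largest fall of the 10 readers. Leaving out PTX replicate 2 gave a log2 fold change of -2.29, the far end of a range of -2.29 to -1.50 over the alternative settings.

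The L3mbtl1 gene had no peak of its own protein within 2000 bp of either end. The nearest peak lay 10879 bp upstream, beside the 5' end of Srsf6, a splicing factor gene 5211 bp upstream of L3mbtl1 that fell 1.23-fold (adjusted p = 0.0179). On the other side, Sgk2 lies 9520 bp away and had 2 reads over all CTRL and 0 over all PTX libraries.

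L3mbtl2 (chr15:81663889-81688315) encodes the MBT subunit of PRC1.6. It was at 40.2, 40.5, 38.3 and 32.1 CPM in CTRL and at 30.4, 33.4, 30.1 and 28.5 CPM in PTX. The lowest CTRL library fell below the highest PTX library, although PTX was lower in 4 of 4 same-numbered pairs. The 1.24-fold fall (log2 fold change -0.30, SE 0.10, adjusted p = 0.0303) passed the threshold in 5 of the 14 alternative settings only. Without CTRL replicate 1, for example, the log2 fold change was -0.22 with an adjusted p of 0.116, and without PTX replicate 4 it was -0.20 with an adjusted p of 0.14. Its last 2150 bp overlap Chadl on the opposite strand, whose 135 CTRL and 96 PTX reads are few beside the 2663 and 1949 of L3mbtl2.

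L3mbtl3 (chr10:26274461-26376036, minus strand) encodes a reader of methylated non-histone proteins as well as histones. CTRL libraries held 51.5, 37.4, 44.3 and 41.8 CPM and PTX libraries 43.0, 35.1, 41.2 and 44.1 CPM. The groups overlap over most of their range, and the log2 fold change of -0.10 had a 95% interval of -0.35 to 0.15 (adjusted p = 0.527). The interval leaves room for a fall of the size measured for L3mbtl2. L3mbtl3 did not pass the test under any of the 14 alternative settings, and its log2 fold change turned to 0.038 without CTRL replicate 1.

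The reader with no detected change in RNA had the highest-scoring L3mbtl1 peak of the group. 3 peaks overlapped the 2000 bp window at the 5' end of L3mbtl3, and only the outermost covered that end. The score is the authors' own, and its meaning is not given in the sources used here. It ran from 8.17 to 52.2 over the list with a median of 10.7. The peak with a score of 37.5, rank 9 of 4677, spans chr10:26373124-26374559 and covers the inner of the gene's annotated RefSeq starts, 1964 bp inside the gene. A peak of score 18.7 (chr10:26374629-26375174) lies just downstream of the other annotated start, which is 817 bp inside the gene. The last, of score 19.3 (chr10:26375400-26377035), runs from position -999 to position 636 bp counted from the gene's outer end. The promoter windows of both starts are printed because they carry the group's strongest peak and the edges of its neighbours. They are RefSeq's GRCm38.p6 windows of 250 bases before to 50 after an annotated start, chr10:26374023-26374322 and chr10:26375170-26375469, both read on the minus strand. In each window printed here, capitals mark the bases under a deposited peak.
L3mbtl3 promoter at the inner start: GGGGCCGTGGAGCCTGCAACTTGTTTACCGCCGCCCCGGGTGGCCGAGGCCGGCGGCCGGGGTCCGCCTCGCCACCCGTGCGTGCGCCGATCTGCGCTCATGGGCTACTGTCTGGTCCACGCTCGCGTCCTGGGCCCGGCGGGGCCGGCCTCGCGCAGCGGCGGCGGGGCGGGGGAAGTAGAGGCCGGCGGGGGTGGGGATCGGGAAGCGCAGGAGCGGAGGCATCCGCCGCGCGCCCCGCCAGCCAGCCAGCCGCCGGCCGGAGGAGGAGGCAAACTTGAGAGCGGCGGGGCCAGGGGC
L3mbtl3 promoter at the outer start: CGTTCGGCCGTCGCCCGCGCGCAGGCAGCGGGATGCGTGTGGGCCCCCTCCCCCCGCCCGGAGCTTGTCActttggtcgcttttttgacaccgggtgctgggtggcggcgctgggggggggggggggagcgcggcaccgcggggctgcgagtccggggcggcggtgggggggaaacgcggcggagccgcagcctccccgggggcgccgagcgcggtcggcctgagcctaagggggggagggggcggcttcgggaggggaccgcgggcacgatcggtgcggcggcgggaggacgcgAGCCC
All 300 bases of the inner window lie under the peak, and 75 of the outer window lie under one. With 42 and 44 CpG, against a median of 7 over 32851 RefSeq mouse windows of the same length, they are denser in CpG than 97.0% and 97.8% of those windows, and the outer one holds an unbroken run of 15 G, the longest G run in the readers' windows.

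L3mbtl4 (chr17:68272898-68784078) is the least studied of the L3mbtl genes. It was at 9.73, 11.6, 11.2 and 10.8 CPM in CTRL and at 5.81, 7.61, 7.17 and 5.52 CPM in PTX. The groups do not overlap, and the 1.66-fold fall (log2 fold change -0.73, SE 0.15, adjusted p = 0.00287) held in all 14 alternative settings. No peak lay within 268356 bp of either end.

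Sfmbt1 and Sfmbt2 encode MBT proteins with a SAM domain that repress transcription with YY1 or with KDM1A and CoREST. Both rose. Sfmbt1 (chr14:30714849-30822721) went from 14.9, 15.7, 17.4 and 15.1 CPM in CTRL to 31.8, 25.1, 30.0 and 30.7 CPM in PTX. The lowest PTX library, numbered 2, still stood well above the highest CTRL library. The rise was 1.86-fold (log2 fold change 0.90, SE 0.10, adjusted p = 0.000109), with 0.86 to 0.97 over the alternative settings.

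Sfmbt1 also had a peak. It spans chr14:30714556-30717491, from 293 bp upstream of the gene's end to 2642 bp inside it, with a score of 13.1 and rank 1226. Its promoter window, chr14:30714917-30715216 on the plus strand, is printed because it is the only raised reader whose start lies under a peak.
Sfmbt1 promoter: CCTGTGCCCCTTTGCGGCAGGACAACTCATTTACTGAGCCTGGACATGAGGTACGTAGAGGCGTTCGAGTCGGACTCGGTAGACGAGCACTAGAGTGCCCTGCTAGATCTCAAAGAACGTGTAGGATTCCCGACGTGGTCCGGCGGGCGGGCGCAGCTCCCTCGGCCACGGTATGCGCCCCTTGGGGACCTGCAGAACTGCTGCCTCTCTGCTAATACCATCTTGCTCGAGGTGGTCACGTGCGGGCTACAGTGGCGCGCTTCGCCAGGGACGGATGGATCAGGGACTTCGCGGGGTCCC
All 300 bases are under the peak. The window holds 26 CpG and 1 match to the E-box CACGTG at position -14 from the start.

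Sfmbt2 (chr2:10370440-10595253) had the largest change of the 10 readers in either direction. CTRL libraries held 9.61, 8.42, 10.0 and 9.93 CPM, and PTX libraries 57.0, 25.5, 51.6 and 49.2 CPM. The CTRL values lie close together, and the PTX library numbered 2 is again nearest to them, at 25.5 CPM where the other 3 reach at least 49.2. The means of 9.50 ± 0.74 and 45.8 ± 13.9 CPM (SD, n = 4) give a 4.82-fold rise (log2 fold change 2.27, SE 0.22, adjusted p = 4.01e-05), with 2.19 to 2.47 over the alternative settings.

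In rodents an intron of Sfmbt2 carries a large cluster of microRNA genes. RefSeq placed 72 microRNA genes within Sfmbt2, of which 60 had a row in the count tables. Their summed reads were 13, 21, 12 and 13 in CTRL libraries 1 to 4 and 133, 25, 79 and 57 in PTX libraries 1 to 4. The order over PTX libraries begins and ends as for Sfmbt2, with library 1 highest and library 2 lowest. In CTRL it does not: the microRNA sum was highest in library 2, where Sfmbt2 was lowest. The sum in PTX library 2 (1.47 CPM) was little above that in CTRL library 2 (1.18 CPM). These are reads of total RNA over near-identical gene copies, so they are uncertain for any single gene and give no level of mature microRNA.

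No peak fell within 2000 bp of an end of Sfmbt2, but a pair lay just beyond. The first (chr2:10372479-10372696, score 14.9, rank 782) begins 39 bp outside that window and 43 bp after the gene's second annotated start. The other (chr2:10372890-10374026, score 13.4, rank 1186) begins 454 bp after that start. The promoter window of the second start, chr2:10372186-10372485 on the plus strand, is printed because the peak begins in its last 7 bases.
Sfmbt2 promoter at the second start: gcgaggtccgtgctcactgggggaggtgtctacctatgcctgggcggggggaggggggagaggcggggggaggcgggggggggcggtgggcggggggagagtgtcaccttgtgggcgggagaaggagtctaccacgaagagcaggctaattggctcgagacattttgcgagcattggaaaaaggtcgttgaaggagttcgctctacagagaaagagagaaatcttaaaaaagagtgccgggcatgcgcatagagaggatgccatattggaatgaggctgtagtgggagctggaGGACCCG
It held 16 CpG and a run of 9 G, and had 60% G+C.

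**Figure D2:**
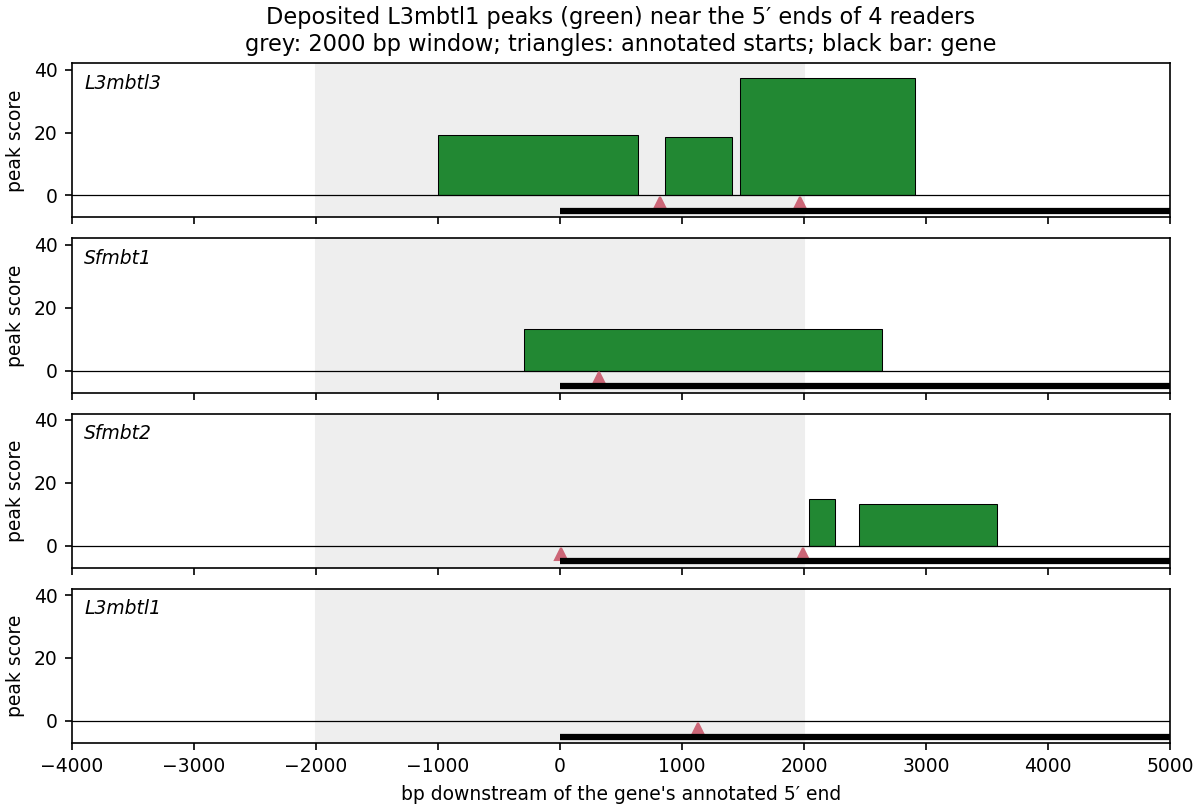
Deposited L3mbtl1 peaks around the 5' ends of L3mbtl3, Sfmbt1, Sfmbt2 and L3mbtl1, with distance downstream of the gene's annotated 5' end in bp across and the authors' peak score upward. Green boxes are peaks, the grey band is the 2000 bp window, triangles are annotated RefSeq starts and the black bar is the gene: L3mbtl3 carries 3 peaks, Sfmbt1 carries 1, the Sfmbt2 peaks begin just outside the band, and L3mbtl1 has none.

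Mbtd1 (chr11:93885850-93946989), the MBT subunit of NuA4/TIP60, was at 32.4, 31.8, 35.2 and 38.7 CPM in CTRL and at 23.0, 19.5, 26.1 and 27.6 CPM in PTX. The groups do not overlap. The fall was 1.44-fold (log2 fold change -0.52, SE 0.12, adjusted p = 0.00682) and held in all 14 alternative settings. Utp18, a ribosome biogenesis gene that starts 83 bp away in the opposite direction, went from a mean of 44.1 to 52.4 CPM and did not pass the test (adjusted p = 0.144).

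Scmh1, Scml2 and Scml4 are relatives of fly Sex comb on midleg, a Polycomb protein. Whether each of these proteins carries MBT repeats was not checked here. Scmh1 (chr4:120405150-120530200) was at 17.0, 17.2, 17.9 and 19.7 CPM in CTRL and at 12.3, 11.9, 14.0 and 12.9 CPM in PTX, with no overlap. It fell 1.41-fold (log2 fold change -0.49, SE 0.10, adjusted p = 0.00324) and did so in all 14 alternative settings.

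Scml2 (chrX:161082525-161258218), best known from the germline, and Scml4 (chr10:42858077-42960782) rested on far fewer reads. Scml2 had 231 reads in CTRL and 128 in PTX in all, at 2.83, 2.52, 3.70 and 4.18 CPM in CTRL and 2.23, 1.83, 1.86 and 2.12 CPM in PTX. Its 1.64-fold fall (log2 fold change -0.71, SE 0.22, adjusted p = 0.0252) kept its call in 8 of 14 alternative settings, with adjusted p up to 0.0991. The settings that ended it were no filter and leaving out CTRL replicate 3 or 4 or PTX replicate 2, 3 or 4. Scml4 had 298 and 145 reads, at 3.13, 3.70, 5.29 and 4.77 CPM in CTRL and 1.21, 2.77, 2.28 and 2.79 CPM in PTX. Its 1.86-fold fall (log2 fold change -0.90, SE 0.28, adjusted p = 0.0306) kept its call in 10 of 14, with adjusted p up to 0.0932. It was lost without CTRL replicate 3 or 4 and without PTX replicate 1 or 3. For both genes the PTX values stayed below all CTRL values.

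**Figure D3:**
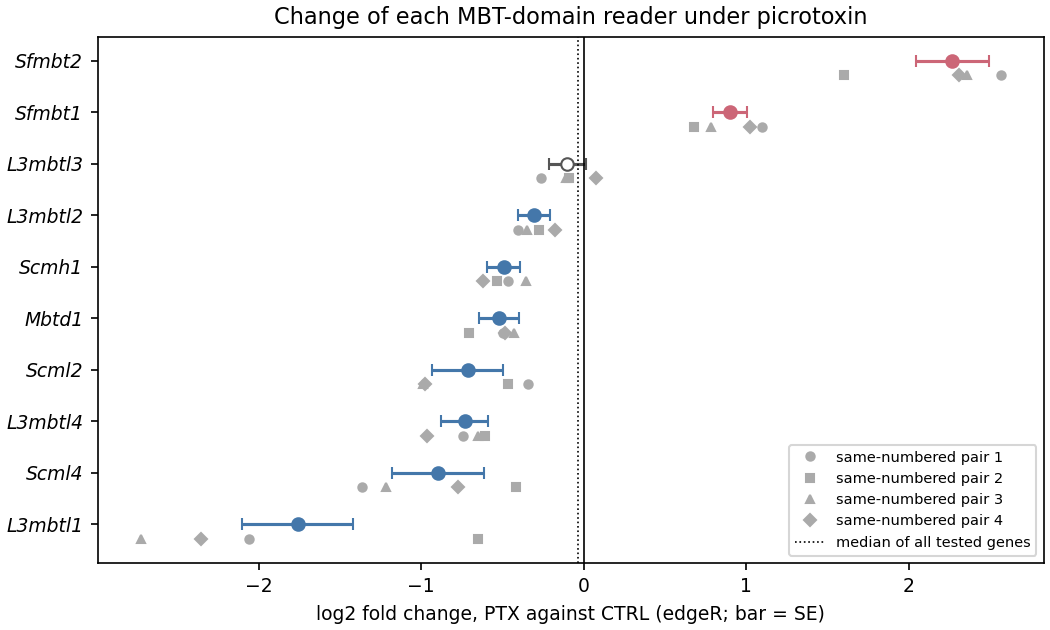
Log2 fold change of each reader, PTX against CTRL, with its standard error from edgeR, ordered by size: red for higher, blue for lower, open for not past the threshold. Small grey marks give the log2 difference of each same-numbered pair of libraries, and the dotted line is the median of all tested genes at -0.03. Pair 2 lies nearest to 0 for L3mbtl1, Sfmbt1, Sfmbt2, L3mbtl4 and Scml4.

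In order of log2 fold change, the 95% intervals of Sfmbt2 (1.77 to 2.77) and Sfmbt1 (0.67 to 1.13) overlapped neither each other nor that of any other reader. Below them came L3mbtl3, L3mbtl2, Scmh1, Mbtd1, Scml2, L3mbtl4, Scml4 and L3mbtl1. Each of these overlapped the interval of its neighbour in that order, L3mbtl1 (-2.52 to -0.999) that of Scml4 (-1.53 to -0.26) included, and differences between readers were not tested. PTX library 2 was the PTX library nearest to the CTRL mean for 5 of the 9 changed readers, against 38.8% of all 6248 changed genes. The summed activity-response genes of that library stood at 6016 CPM within a PTX range of 5232 to 6476 CPM, of which Scg2 gave 3243 CPM. Fos, Fosb, Arc, Npas4, Egr1, Ptgs2 and Inhba were lowest of the PTX group in that library, and the rest of the list was not.

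Of the 10 readers, 2 (L3mbtl3 and Sfmbt1) had a peak within 2000 bp of a gene end, against 26.0% of the 14733 tested genes with a position. The same 2 genes were found with a 1000 bp window, with peaks of at least the median score, and with 0.5 of the peak's length required to overlap. A 5000 bp window added Sfmbt2. For the other 7 readers the nearest peak lay at least 10879 bp from an end, and for Scml2 1502190 bp. Sfmbt1 rose and L3mbtl3 did not pass the test, and none of the 7 readers that fell had a peak.

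RefSeq promoter windows were found for 9 of the 10 readers, 13 windows in all. They were searched on both strands for the cAMP response element TGACGTCA, the AP-1 site TGANTCA and the E-box CACGTG, the first pair being sites of activity-regulated factors. None of the 13 held the first or the second, which occur in 1.79% and 7.81% of all mouse windows. The E-box, found in 7.15% of windows, occurred in Sfmbt1, once in L3mbtl4 at position -248, and at -162 and -69 in Mbtd1. A match is letters in a window and not a bound site.

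Among L3mbtl1's partners and the genes that write or read its mark, Kmt5a, the enzyme that places the first methyl group on histone H4 lysine 20, rose. It went from 24.8, 22.6, 24.9 and 22.1 CPM in CTRL to 44.7, 35.3, 40.8 and 40.0 CPM in PTX, a 1.71-fold rise (log2 fold change 0.77, SE 0.09, adjusted p = 0.000145). The groups do not overlap. In the list of H4 lysine 20 enzymes and other readers, 5 of 7 genes rose, against 19.0% of all tested genes, none fell, and the median log2 fold change was 0.44. The others that rose were the demethylases Phf8 (0.43) and Rsbn1 (0.54) and the dimethyl-lysine readers Trp53bp1 (0.44) and Orc1 (0.99), all as log2 fold changes. Orc1 rests on few reads, 42 over the CTRL group and 76 over the PTX group. Kmt5b and Kmt5c, which add further methyl groups, did not pass the test. The count was 5 in every alternative setting. L3mbtl1's binding partner Rb1, the retinoblastoma repressor, fell 1.30-fold (adjusted p = 0.00185) and Cbx3, which encodes HP1-gamma, fell 1.20-fold (adjusted p = 0.0449), the latter with overlapping groups. Together 1 of 5 partner genes rose and 2 fell, against 19.0% and 20.1% of all tested genes. The gene that rose is Kmt5a, which stands in both lists. In 10 of 14 alternative settings only 1 fall was left, among them leaving out CTRL replicate 1, 2 or 3 or PTX replicate 1, 3 or 4.

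In PRC1.6, the complex around L3mbtl2, 1 of 13 other subunits rose and 4 fell, with a median log2 fold change of -0.01. That share of changed genes is close to the 39.2% of all tested genes. Wdr5, an adaptor shared with histone methyltransferases, rose, with CTRL libraries between 45.5 and 48.2 CPM and PTX libraries between 67.7 and 71.4 CPM (log2 fold change 0.56, adjusted p = 0.000118). Pcgf6, the subunit that defines the complex, fell (log2 fold change -0.43, adjusted p = 0.0136), as did the ubiquitin ligases Rnf2 (-0.35) and Ring1 (-0.41) and Cbx3. The count of falls was 1 without PTX replicate 3 and without both libraries numbered 1, and 2 when CTRL replicate 1, CTRL replicate 2, PTX replicate 1 or PTX replicate 4 was left out. The count of rises was 3 with the replicate number as a block and without both libraries numbered 1, and 2 without CTRL replicate 1 or PTX replicate 1, 2 or 4.

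The canonical PRC1 genes around Scmh1 and Scml2 held larger falls. Of 12 genes 5 fell and 1 rose, against 20.1% and 19.0% of all tested genes, with a median log2 fold change of -0.30. The chromobox readers of trimethylated H3 lysine 27 led: Cbx6 went from 258, 224, 247 and 218 CPM in CTRL to 126, 110, 93.4 and 100.0 CPM in PTX, a fall without overlap (log2 fold change -1.14, SE 0.11, adjusted p = 2.89e-05). Cbx2 fell by 1.10 and Cbx7 by 0.96 on the log2 scale, and Rnf2 and Ring1 are shared with PRC1.6. Phc1, a polyhomeotic homolog that like Scmh1 carries a SAM domain, rose (log2 fold change 0.50, adjusted p = 0.00485). Without both libraries numbered 1 the count of falls was 3. The count of rises was 2 without PTX replicate 4 and with the replicate number as a block.

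Partners of the Sfmbt proteins moved little beside Sfmbt1 and Sfmbt2 themselves. Kdm1a rose 1.24-fold (log2 fold change 0.31, adjusted p = 0.00782), and Yy1, Rcor1, Hdac1 and Hdac2 did not pass the test. So 1 of 5 rose and none fell, against 19.0% and 20.1% of all tested genes, and the share of rises is close to theirs. The count of rises was 2 in 6 of 14 alternative settings, among them the replicate block and leaving out CTRL replicate 1 or PTX replicate 2 or 4. In NuA4/TIP60, the complex of Mbtd1, 3 of 16 genes rose, 2 fell and 11 did not pass the test, with a median log2 fold change of -0.01. The share of rises is close to that of all tested genes (19.0%), and that of falls is below theirs (20.1%). Those that rose were Ruvbl2 (0.45), Ing3 (0.42) and Epc1 (0.40), and those that fell were Epc2 (-0.40), a paralog of Epc1, and Brd8 (-0.21). In 12 of 14 alternative settings, each library left out in turn included, only 1 NuA4 gene was called lower.

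**Figure D4:**
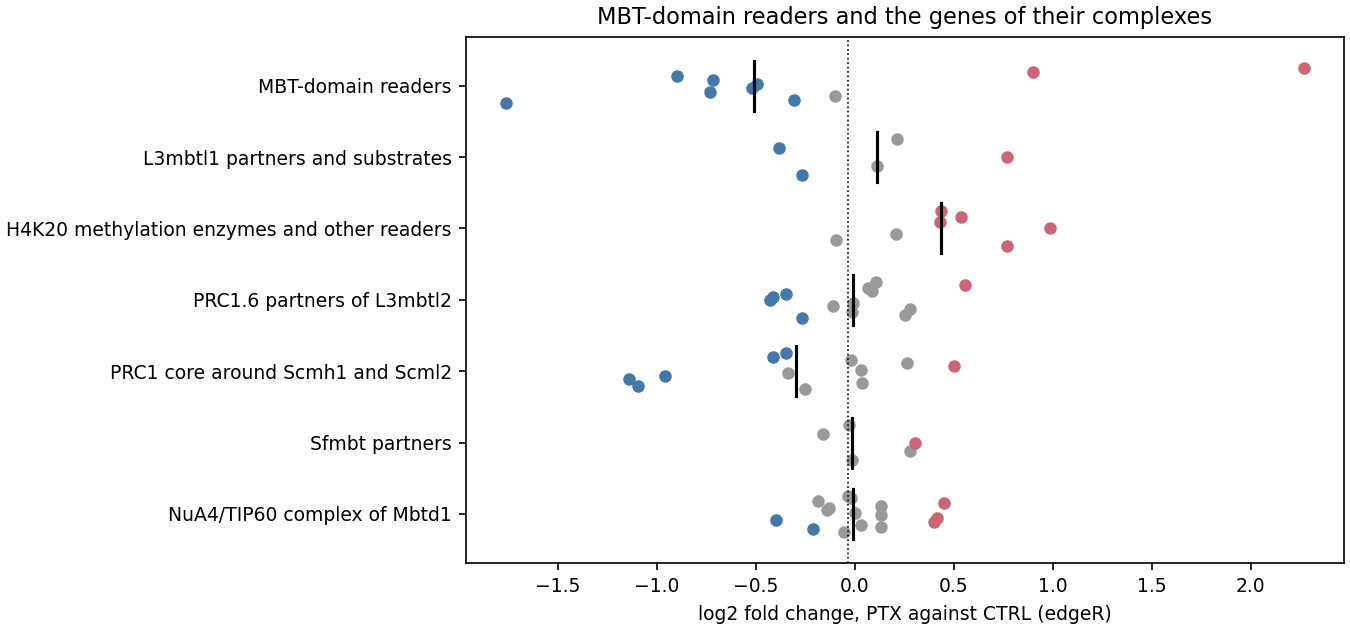
Log2 fold change, PTX against CTRL, of the 10 readers and of the listed genes of their complexes, 1 point per gene. Red points are called higher, blue lower and grey neither, black bars are list medians and the dotted line is the median of all tested genes. The readers' median of -0.51 is the lowest of the lists and that of the H4 lysine 20 genes, 0.44, the highest; some genes stand in more than 1 list.

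Peaks of L3mbtl1 near partner genes were counted against the 26.0% of positioned genes with a peak. Within 2000 bp of an end, 3 of 4 positioned L3mbtl1 partners, 2 of 7 H4 lysine 20 genes, 6 of 13 PRC1.6 genes, 5 of 12 PRC1 genes, 3 of 5 Sfmbt partners and 7 of 16 NuA4 genes had a peak. The highest scores were at Rb1 (26.1, rank 47), at the NuA4 gene Vps72 (24.1, rank 79) and at Yy1 (21.4, rank 162). Kmt5a had no such peak. The lists share genes, so their counts cannot be added.

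Genes whose profile over the 8 libraries was most like that of L3mbtl1 were found by the root mean square difference of mean-centred log2 CPM among 14801 tested genes with a mean of at least 1 CPM. The nearest were Gprin3 (0.25), Slc35f4 (0.29), Neurod6 (0.30), Rhof (0.31) and Zkscan16 (0.31). Neurod6, a transcription factor of excitatory forebrain neurons, was at 212, 179, 154 and 132 CPM in CTRL and at 40.8, 86.9, 37.0 and 39.5 CPM in PTX. It is 1 of the 6 excitatory markers that fell. PTX library 2 was highest of its PTX values, which a choice by likeness of profile makes likely. The part of excitatory neuron content in the fall of L3mbtl1 was not tested. For Sfmbt2 the near profiles included those of Ercc5 (0.18), a nucleotide excision repair nuclease, Trim36 (0.21), 1110002E22Rik (0.21) and Tchh (0.23). Ercc5 was at 46.7, 44.8, 39.7 and 45.0 CPM in CTRL and at 227, 146, 230.0 and 201 CPM in PTX. Library 2 was the lowest of its PTX values, which the choice by profile likewise makes likely.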

How the data were processed

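For RNA-seq the authors deposited 1 table of raw read counts per library, by Ensembl gene. Per the labels' protocols, 15 ng of RNA depleted of ribosomal RNA entered ScriptSeq v2 libraries. The submitters' processing notes name CASAVA 1.8, TopHat2 2.0.9, HTSeq 0.6.1, Bowtie2 2.2.4 and mm10. Not given in the sources used here are the strand setting and the annotation version, so reads of overlapping genes cannot be told apart. HTSeq's summary lines, kept out of the tests, put 19.9% to 26.8% of alignments outside genes and 15.2% to 20.5% at positions that are not unique. No library was a copy of another (smallest chi-square per degree of freedom within a group 9.45). For ChIP-seq the authors deposited 1 list of peaks with a score each. Not given in the sources used here are the peak caller, the threshold of IDR (a filter on reproducibility between replicates), any pooling and what part the L3mbtl1-/- samples played. Signal per ChIP-seq sample was not analysed here.

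PTX and CTRL were compared with edgeR 4.0.16 in R 4.3.3 (quasi-likelihood F test, TMM, filterByExpr, group as the only term, Benjamini-Hochberg adjusted p under 0.05). The same fit was run on simulated counts with independent libraries and far fewer changed genes. That run checked the code and not the calls in these data. The standard error is the log2 fold change over the square root of F, and 95% intervals use the t quantile at the fit's total degrees of freedom. The alternatives were upper-quartile and RLE scaling, DESeq2 1.42.0, no filter, a replicate block, each library left out in turn and both libraries numbered 1 left out. Deviations of same-numbered CTRL and PTX libraries from their group means correlated at 0.76, 0.56, 0.15 and 0.59 for numbers 1 to 4. Libraries of different number correlated at -0.49 to 0.21, and CTRL number 3 correlated more with PTX numbers 2 (0.21) and 4 (0.20). The labels do not say that the numbers mark shared cultures. The main fit therefore left the numbers out, and only the replicate block used them. Gene positions and promoter windows came from RefSeq tables of GRCm38.p6, the assembly of mm10, and peaks were set against both ends of each gene.

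The readers and the lists of partners and markers were chosen with earlier results of these data known. Named besides the 10 readers were up to 3 called genes per direction and list with the smallest p, 5 genes of most similar profile each for L3mbtl1 and Sfmbt2, and neighbours that could share reads. Other genes were named after their values were seen. Some items that the rule covers are not reported here.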

Additional observations from a re-analysis of the deposited data

How the results depend on the processing

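Over 14 alternative settings the 10 readers gave 140 log2 fold changes, of which 120 kept direction and side of the threshold, 19 kept the direction but lost the call (L3mbtl2, Scml2 and Scml4) and 1 reversed: L3mbtl3 at 0.038 without CTRL replicate 1 (-0.18 to 0.038 with 1 library left out), and the cause was not tested. With 1 library left out, the count of lowered readers ran from 4 to 6 against 7, and the lowest count came without CTRL replicate 3 and without PTX replicate 3, which leave fewer samples. It was 6 with DESeq2, 5 with no filter and 7 with the other scalings. The count of raised readers was 2 throughout. The replicate block changed no reader's call (L3mbtl1 -1.82, adjusted p = 5.35e-05; L3mbtl2 adjusted p = 0.00353) and called 8820 genes against 6248. In the partner lists it moved the PRC1.6 rises from 1 to 3, the PRC1 rises from 1 to 2 and the Sfmbt partner rises from 1 to 2, and no other count of these lists by over 1.5 times. Requiring peaks of at least the median score left 2165 genes with a peak against 3829, and the same 2 readers. Scml2 and Scml4 rest on 128 and 145 reads over the PTX group.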
